A study of Mus musculus with 4 samples.

Results

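CTCF binding was described around 10 mouse genes that drive or end the elongation of the body axis: the caudal homeobox genes Cdx1 and Cdx2, the T-box genes T and Tbx6, the signals Wnt3a and Fgf8, the retinoic acid-degrading enzyme Cyp26a1, the growth factor Gdf11, and the RNA-binding proteins Lin28a and Lin28b. The genes were chosen by name and role, and every deposited peak whose summit lay within 50 kb of the span of 1 of them was taken, with gene spans from RefSeq on GRCm38.p6 (the assembly also called mm10). These 10 genes, of 49939 placed in the gene table, held 84 of 74555 summits in the Del(CBS8-10) library, 110 of 99177 in the Inv:Del(CBS7-10) library, 76 of 66365 in the Inv library and 111 of 93969 in the Ins library. The assay was CUT&RUN, in which an antibody against CTCF directs a nuclease to cut out the DNA around bound protein. The cells were mouse embryonic stem cells with 1 library per genotype, so nothing below has a replicate check and no test between genotypes was possible.

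All 4 lines carry edits at the HoxB cluster on chromosome 11. In each, 1 allele is labelled Del and the other Del(i9-13) with an inserted array of CTCF sites, Ins(CBS5-10), so that no unedited cells were among the libraries used here. The Ins library has that array only. Del(CBS8-10) has lost the sites CBS8 to CBS10 of the array, Inv carries the array in inverted orientation, and Inv:Del(CBS7-10) carries the inverted array without CBS7 to CBS10. Del(CBS8-10) and Inv were each set against Ins, and Inv:Del(CBS7-10) against Inv. The first pair of comparisons share the Ins library. The labels used here give no clone or passage, and peaks of CTCF do not show whether the cells expressed stem cell markers. Wnt3a lies on the edited chromosome, far from HoxB, and the other 9 genes lie on other chromosomes.

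The body axis is built from head to tail by progenitors in the tail bud that give rise to spinal cord and paraxial mesoderm. WNT3A and FGF8, with the transcription factors T, TBX6 and the CDX proteins, keep these progenitors supplied and direct their descendants, and CYP26A1 shields them from retinoic acid. GDF11 drives the switch from trunk to tail, and the LIN28 proteins, which block the maturation of let-7 microRNAs, favour continued elongation. CTCF is a zinc finger protein that, together with cohesin, anchors chromatin loops and can insulate promoters from enhancers. In embryonic stem cells most of these genes are not in their tail bud state, and CTCF peaks do not measure expression.

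Of the 54 positions listed in all 4 libraries, 1 lay within a gene of the 10, whose bodies make up 18.4% of the windows. The longest bodies were those of Lin28b, with 109698 bases, and Wnt3a, with 42716. The same count was not made for other genes, so it does not show whether the 10 differ from them. Binding just inside Cdx1, described below, is not in this count because its summits differed in place. Of the 8 members in RefSeq's promoter table, only Cyp26a1 had a summit inside its promoter window, and only in the Del(CBS8-10) library. A window runs from 250 bases before to 50 bases after the listed start. Over all promoter windows outside chromosome 11, 10.8% held a summit in the Del(CBS8-10) library, 16.2% in Inv:Del(CBS7-10), 12.9% in Inv and 17.6% in Ins. The Cyp26a1 window is shown because it holds that summit, which was weak, with 10 fragments and a −log10 q of 6.07. The summit, 37697661, lay 0.077 kb upstream of the gene's span and 0.115 kb from the start of the divergent gene Gm32342. It is chr19:37697558-37697857 on the plus strand of GRCm38.p6, and the capitals mark the 10 bases on each side of the summit and the summit base itself.
Cyp26a1 promoter: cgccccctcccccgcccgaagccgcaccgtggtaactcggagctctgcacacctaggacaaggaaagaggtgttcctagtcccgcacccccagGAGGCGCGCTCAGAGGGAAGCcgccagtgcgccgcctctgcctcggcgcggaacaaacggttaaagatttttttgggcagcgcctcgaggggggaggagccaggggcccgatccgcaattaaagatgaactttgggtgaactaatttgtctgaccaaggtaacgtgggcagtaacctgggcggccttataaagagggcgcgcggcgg

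The CTCF core motif was searched in the same 8 windows on both strands as CCA, 2 bases of any kind, AG, 2 bases of any kind and GGC. Only the Tbx6 window held it, against 2.43% of 32851 promoter windows in the whole table. The Tbx6 window, chr7:126781233-126781532 on the plus strand, is shown because the match lies between the gene's start and its nearest summits. The capitals mark the match, which reads as the motif on the opposite strand. No summit of any library fell in this window, and the match is a description of letters only.
Tbx6 promoter: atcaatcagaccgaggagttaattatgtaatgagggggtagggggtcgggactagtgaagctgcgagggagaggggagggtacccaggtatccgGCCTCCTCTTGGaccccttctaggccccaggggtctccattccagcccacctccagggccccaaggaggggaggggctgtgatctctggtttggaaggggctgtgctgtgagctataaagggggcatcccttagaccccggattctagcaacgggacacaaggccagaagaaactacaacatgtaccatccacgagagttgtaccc

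Summits of the 4 lists that chained within 100 bp were counted as 1 position, which gave 147 positions. Of these, 54 were listed in all 4 libraries, 24 in 3, 24 in 2 and 45 in 1. The share in all 4 was 36.7% (95% Wilson interval 29.4% to 44.8%), beside 32.8% of 123657 positions on the rest of the genome outside chromosome 11. Strength separated these classes: with a highest −log10 q of at least 20, 53 of 71 positions (74.6%) were in all 4 lists, beside 74.7% on the genome. Below 20, 1 of 76 positions (1.32%) was in all 4, beside 3.23% on the genome. Positions in a single list had a median −log10 q of 5.41 and at most 15.3. They numbered 12 in Del(CBS8-10) (8.16%, genome 7.32%) and 12 in Inv:Del(CBS7-10) (8.16%, genome 14.8%). In Inv there were 4 (2.72%, genome 4.80%) and in Ins 17 (11.6%, genome 11.8%). The share of constant positions near the 10 genes was thus near the genome's at strong sites.

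Levels are given below as relative pileup, the number of fragments at a summit divided by that library's median at 38717 peaks found in all 4 lists outside chromosome 11 and the sex chromosomes, so that 1 is a median shared peak. The medians were 30 fragments in Del(CBS8-10), 115 in Inv:Del(CBS7-10), 21 in Inv and 66 in Ins. The lists hold no read totals. The background that the peak caller used, in fragments per position, was 0.553 in Del(CBS8-10), 1.33 in Inv:Del(CBS7-10), 0.19 in Inv and 0.858 in Ins, so Inv was the shallowest library and Inv:Del(CBS7-10) the deepest. A position missing from a shallow list may have been too weak to be called there, and −log10 q grows with depth.

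**Figure D1:**
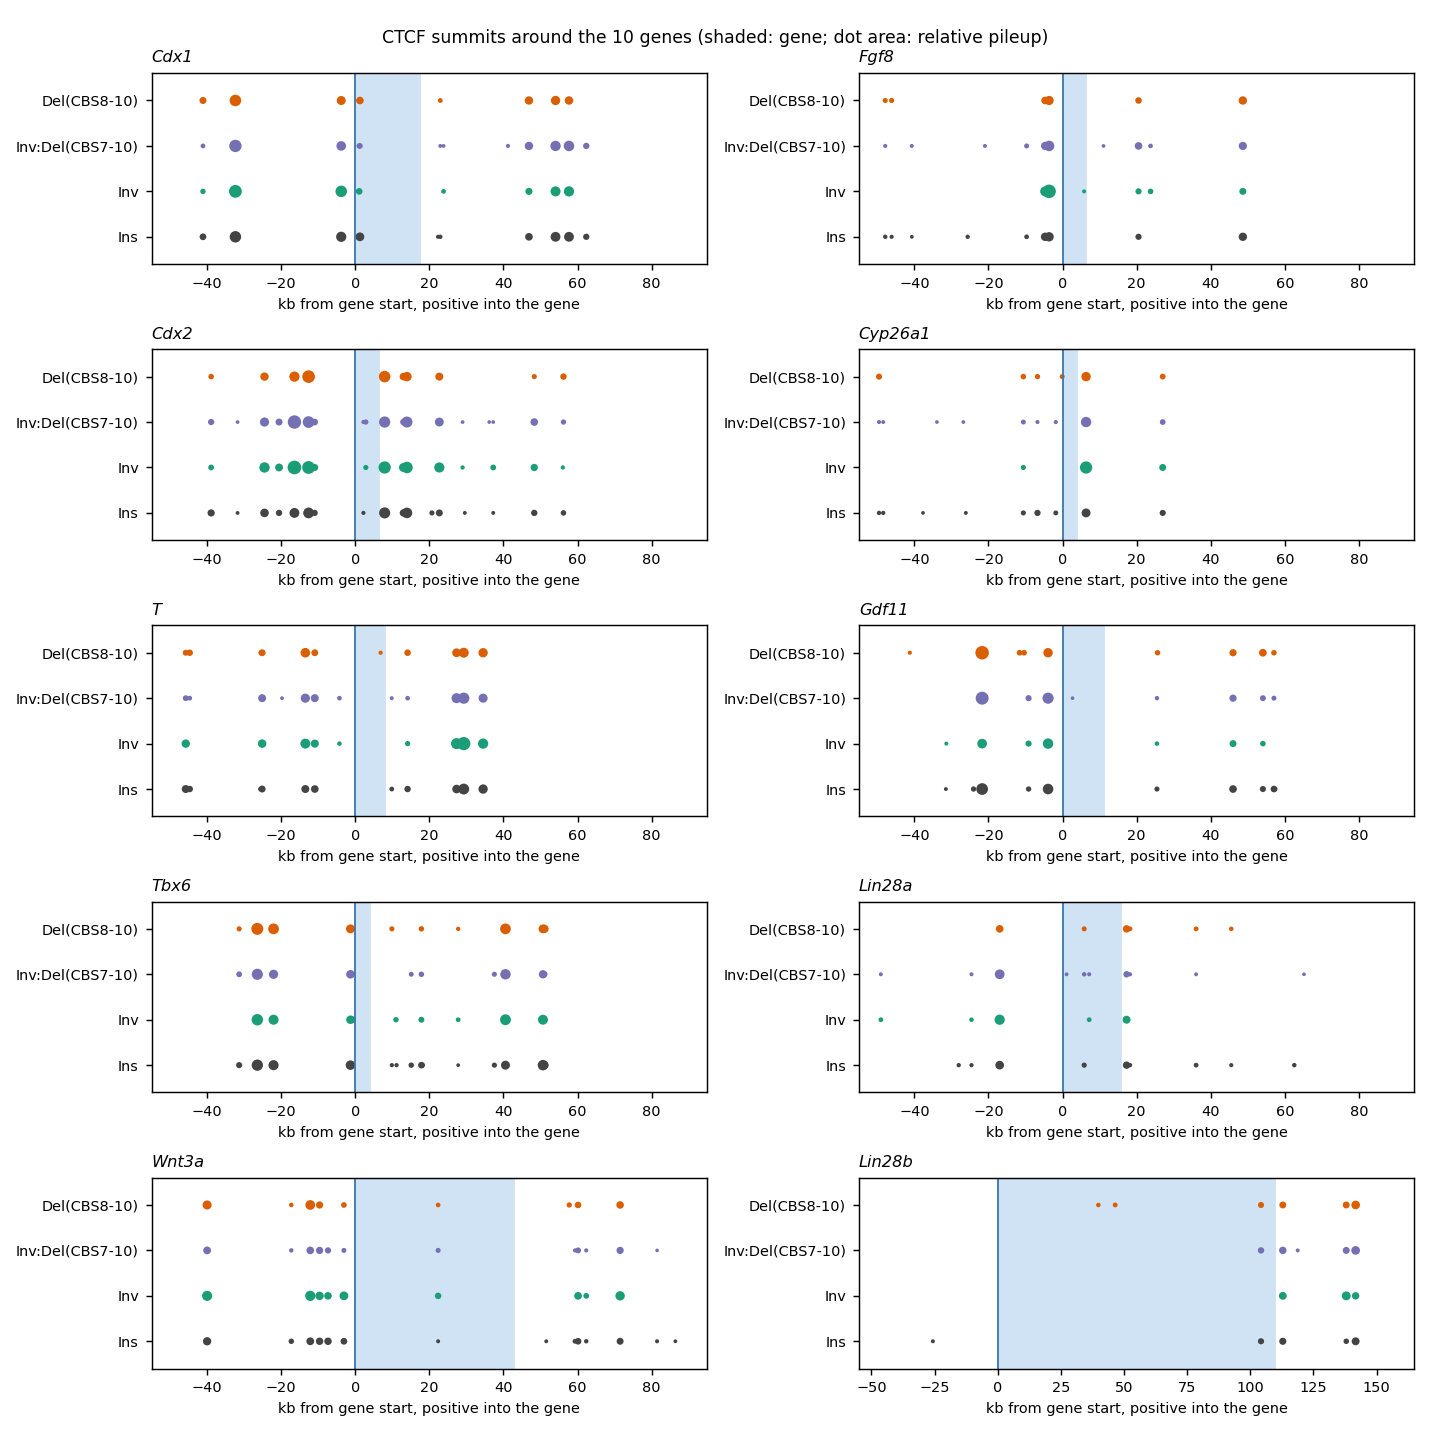
CTCF summits within 50 kb of each gene. The x axis gives kb from the gene's start, negative upstream, shading marks the gene, rows are the 4 libraries and dot area is relative pileup. The large dots line up over all 4 libraries, while dots present in a single library are small.

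Every one of the 10 genes had at least 1 summit within 50 kb in all 4 libraries, as did 89.5% of 20018 protein-coding genes outside chromosomes 11 and Y. A summit within 5 kb of the gene's start in all 4 libraries was found at 5 of the 10, namely Cdx1, Tbx6, Wnt3a, Fgf8 and Gdf11, beside 38.4% of 16004 genes with a known start. Cdx1 and Fgf8 have no start in the promoter table, and their strand was taken from general knowledge. Of the 8 members in that table, Tbx6, Wnt3a and Gdf11 had such a summit. Within 1 kb, 1 of the 10 had a summit in all 4 libraries, Tbx6. The share of all genes at 1 kb was not computed. The number of summits per gene had a median of 8.5 in Del(CBS8-10), 10.5 in Inv:Del(CBS7-10), 7.5 in Inv and 10.5 in Ins. Over all protein-coding genes these medians were 6, 9, 6 and 8 in the Del(CBS8-10), Inv:Del(CBS7-10), Inv and Ins libraries.

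Cdx1 encodes a caudal-type homeobox factor that regulates Hox genes. Its window on chromosome 18 held 13 positions, 6 of them in all 4 libraries. The strongest was 61068566, 32.4 kb upstream of the start and within Pdgfrb, a receptor gene. Its relative pileup was 2.73 in Del(CBS8-10), 3.14 in Inv:Del(CBS7-10), 3.38 in Inv and 2.67 in Ins. Its −log10 q was at the 98.4 percentile of its own list or higher in every library, and the Del(CBS8-10) to Ins ratio was 1.02 (95% interval 0.779 to 1.34, counting error only).

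The promoter side of Cdx1 had a constant peak at 61040000, 3.80 kb upstream, with a relative pileup of 1.57 in Del(CBS8-10), 1.80 in Inv:Del(CBS7-10), 2.71 in Inv and 2.08 in Ins. Just inside the gene, 61034956 lay 1.24 kb from the start and had a −log10 q of 21.6 in Del(CBS8-10), 31.9 in Inv:Del(CBS7-10) and 74.3 in Ins. No Inv summit lay within 100 bp of it, but the neighbouring position 61035151, the nearest to the start at 1.05 kb, was listed in Inv:Del(CBS7-10) at 15.8 and in Inv at 7.11. Binding just inside Cdx1 was therefore listed in all 4 libraries, with summits that differed in place. At the far 3′ end of the window, 60973843 within Camk2a was listed in Inv:Del(CBS7-10) at a −log10 q of 40.6 and in Ins at 21.5.

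Cdx2, the caudal factor that also specifies trophectoderm and intestine, had the densest window, with 23 positions on chromosome 5 and 9 in all 4 libraries. The strongest in Ins, 147299323, lay 7.93 kb from the start and 1.58 kb beyond the gene's 3′ end. Its relative pileup was 2.70 in Del(CBS8-10), 2.57 in Inv:Del(CBS7-10), 3.10 in Inv and 2.48 in Ins, and all ratios of the compared pairs lay within 1.25-fold. On the upstream side, 147323681 at 16.4 kb had 2.10 in Del(CBS8-10), 3.73 in Inv:Del(CBS7-10), 3.90 in Inv and 1.94 in Ins. It was high in both libraries with the inverted array, and the Inv to Ins ratio was 2.01 (1.51 to 2.68).

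Inside the Cdx2 gene no position was listed in all 4 libraries. The one nearest to the start, 147305054 at 2.19 kb, had a −log10 q of 7.82 in Inv:Del(CBS7-10) and 4.80 in Ins and was in neither other list. Another, 147304414 at 2.83 kb, was listed only in the 2 inverted libraries, at 27.9 in Inv:Del(CBS7-10) and 4.69 in Inv. Its relative pileup was 0.391 in Inv:Del(CBS7-10) and 0.381 in Inv, under a median shared peak.

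Further from Cdx2, 2 positions in and beside the neighbouring Urad gene were missing from the Del(CBS8-10) list. At 147318223 the −log10 q was 46.5 in Inv:Del(CBS7-10), 9.16 in Inv and 20.4 in Ins, and at 147327839 it was 29.8 in Inv:Del(CBS7-10), 8.66 in Inv and 14.5 in Ins. The position 147251055, within the antisense gene Plut at the other edge, was missing from Inv and had 17.1 in Del(CBS8-10), 37.0 in Inv:Del(CBS7-10) and 23.9 in Ins. An Inv summit at a −log10 q of 2.49, 147251231, lay just outside the matching distance.

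T, known as Brachyury, is the T-box factor of mesoderm and notochord. Its window on chromosome 17 had 15 positions, 8 of them constant, with no constant position closer than 10.9 kb to the start. Its highest peak in Ins was 8463703, 29.3 kb from the start and beyond the 3′ end, with a relative pileup of 1.97 in Del(CBS8-10), 2.56 in Inv:Del(CBS7-10), 3.62 in Inv and 2.38 in Ins. It was highest in Inv, 1.52 times Ins (1.14 to 2.01).

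The position nearest to the start of T, 8430145 at 4.28 kb upstream, was listed only in the inverted libraries, at a −log10 q of 24.7 in Inv:Del(CBS7-10) and 3.65 in Inv. In fragments it held 30 in Inv:Del(CBS7-10) and 5 in Inv, which is a relative pileup of 0.261 in Inv:Del(CBS7-10) and 0.238 in Inv. At 8389719, within the neighbour T2, a peak was listed at 14.1 in Del(CBS8-10), 19.8 in Inv:Del(CBS7-10) and 29.1 in Ins and was not listed in Inv.

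Tbx6 encodes the T-box factor that commits progenitors to paraxial mesoderm. It had 16 positions on chromosome 7, 8 of them constant and none inside the gene. In Ins the strongest was 126755031, which lay 26.5 kb upstream and had a relative pileup of 2.93 in Del(CBS8-10), 2.51 in Inv:Del(CBS7-10), 2.67 in Inv and 2.59 in Ins, nearly equal in the 4 libraries. Close to the start, 126780172 at 1.31 kb upstream and within the neighbour Ypel3, had 1.53 in Del(CBS8-10), 1.40 in Inv:Del(CBS7-10), 1.38 in Inv and 1.79 in Ins.

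A weaker constant peak lay closer still, at 126780785 and 0.698 kb upstream of Tbx6, the constant position nearest to any of the 10 starts. It held 11 fragments in Del(CBS8-10), 23 in Inv:Del(CBS7-10), 16 in Inv and 22 in Ins, or a relative pileup of 0.367 in Del(CBS8-10), 0.2 in Inv:Del(CBS7-10), 0.762 in Inv and 0.333 in Ins. It was highest in Inv, and the Inv:Del(CBS7-10) to Inv ratio was 0.263 (0.133 to 0.532). Downstream, 126796579 within the aldolase gene Aldoa had a −log10 q of 21.7 in Inv:Del(CBS7-10) and 12.6 in Ins only. Upstream, 126750125 was missing from Inv and had 2.12 in Del(CBS8-10), 24.2 in Inv:Del(CBS7-10) and 16.2 in Ins.

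Wnt3a encodes the WNT ligand of the tail bud. Its window on chromosome 11 had 16 positions on the chromosome with the array, 7 of them constant, and on that copy it was the only one of the 10 with a constant position inside the gene. That position, 59268396, lay 22.4 kb from the start and had a −log10 q of 5.71 in Del(CBS8-10), 40.2 in Inv:Del(CBS7-10), 15.9 in Inv and 5.41 in Ins. In relative pileup it was highest in Inv, with 0.267 in Del(CBS8-10), 0.348 in Inv:Del(CBS7-10), 0.714 in Inv and 0.136 in Ins. The counts behind these were 8, 40, 15 and 9 fragments in Del(CBS8-10), Inv:Del(CBS7-10), Inv and Ins, so the intervals are wide: 2.15 to 13.6 around the Inv to Ins ratio of 5.24.

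The peak nearest to the Wnt3a start, 59293830 at 3.08 kb upstream, had a relative pileup of 0.5 in Del(CBS8-10), 0.339 in Inv:Del(CBS7-10), 1.48 in Inv and 0.788 in Ins. It was highest in Inv, and Inv:Del(CBS7-10) had 0.23 times the Inv level (0.14 to 0.381). All these levels are for 1 of the 2 listed copies, set against peaks of chromosomes listed once. Shared peaks over the whole of that copy were also higher in Inv. Their median log2 ratio was 0.76 for Inv over Ins and −0.78 for Inv:Del(CBS7-10) over Inv. In the Ins list the strongest was 59330756, within the neighbouring ligand gene Wnt9a and 40.0 kb upstream, with 1.60 in Del(CBS8-10), 1.12 in Inv:Del(CBS7-10), 2.05 in Inv and 1.30 in Ins. With both copies added, it had 2.87 in Del(CBS8-10), 2.43 in Inv:Del(CBS7-10), 3.67 in Inv and 2.50 in Ins, Inv again the highest. Upstream, 59298124 was not listed in Del(CBS8-10) on this copy and had a −log10 q of 37.8 in Inv:Del(CBS7-10), 10.4 in Inv and 38.5 in Ins. Likewise 59308032 was not listed in Inv and had 3.84 in Del(CBS8-10), 21.6 in Inv:Del(CBS7-10) and 26.6 in Ins.

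The files list both copies of chromosome 11, the one with the array and the Del allele, and the Wnt3a window is on each. On the Del copy 59298124 was listed in Del(CBS8-10) at 17.9, and 59308032 was listed in Inv at 9.09, so neither gap was seen on both copies. At the intragenic position 59268396, a summit was listed on both copies in 3 libraries and on the array copy only in Del(CBS8-10), so it was not constant on the Del copy. The window held 10 summits on the array copy and 8 on the Del copy in Del(CBS8-10), 12 and 10 in Inv:Del(CBS7-10), 9 and 10 in Inv, and 14 and 10 in Ins. Summed over all summits of the window, the pileups on the array copy and the Del copy were 242 and 230 fragments in Del(CBS8-10), 754 and 740 in Inv:Del(CBS7-10), 253 and 257 in Inv, and 546 and 489 in Ins. The placing of reads common to both copies is not stated, so the copies may not be independent measurements.

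Fgf8 encodes the FGF ligand of the tail bud and of other signalling centres. Its window on chromosome 19 had 13 positions and 4 constant ones. The strongest in Ins was also the nearest to the start, 45746561 at 3.62 kb upstream. It had 49 fragments in Del(CBS8-10), 255 in Inv:Del(CBS7-10), 80 in Inv and 113 in Ins, or a relative pileup of 1.63 in Del(CBS8-10), 2.22 in Inv:Del(CBS7-10), 3.81 in Inv and 1.71 in Ins. The Inv value stood above the others, at 2.23 times Ins (1.65 to 2.99), and Inv:Del(CBS7-10) was at 0.582 times Inv (0.451 to 0.758). Next to it, 45747635 at 4.69 kb, towards the chaperone gene Npm3, had 1.07 in Del(CBS8-10), 1.30 in Inv:Del(CBS7-10), 1.95 in Inv and 1.35 in Ins, so Inv was again the highest, with smaller gaps to the others.

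Cyp26a1 encodes the enzyme that clears retinoic acid from the tail bud. It had 13 positions, also on chromosome 19, with 3 constant and 6 in a single library. Past the gene's 3′ end lay its strongest Ins peak, 37704099, 6.36 kb from the start. Its relative pileup was 1.73 in Del(CBS8-10), 2.15 in Inv:Del(CBS7-10), 3.10 in Inv and 1.52 in Ins, again highest in Inv, at 2.04 times Ins (1.47 to 2.82). At 37690979, in the neighbouring paralogue Cyp26c1, the −log10 q was 5.68 in Del(CBS8-10), 8.26 in Inv:Del(CBS7-10) and 31.5 in Ins, with no summit in Inv. The nearest summit to the start, 37697661, is the promoter peak printed above, listed in Del(CBS8-10) alone.

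Gdf11, the growth factor of the trunk-to-tail switch, had 17 positions on chromosome 10, 4 of them constant and 9 in a single library. The strongest in Ins, 128913414, lay 21.7 kb upstream, beyond the neighbour Cd63. It had the highest −log10 q in Ins near any of the 10 genes, 197, with 114 fragments in Del(CBS8-10), 398 in Inv:Del(CBS7-10), 39 in Inv and 185 in Ins. In relative pileup it had 3.80 in Del(CBS8-10), 3.46 in Inv:Del(CBS7-10), 1.86 in Inv and 2.80 in Ins. Here Inv was the lowest, at 0.662 times Ins (0.457 to 0.94), and Inv:Del(CBS7-10) was at 1.86 times Inv (1.34 to 2.66). The log2 Inv to Ins ratios at the strongest Ins peaks of Fgf8, Cyp26a1 and Gdf11 were 1.15, 1.03 and −0.59. All of them lay inside the genome's range of −1.03 to 1.47. The log2 ratio of Inv:Del(CBS7-10) to Inv at this Gdf11 peak, 0.90, lay just above the genome's 95th percentile of 0.87.

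The constant peak closest to the Gdf11 start, 128895618 at 3.90 kb upstream, had 1.73 in Del(CBS8-10), 2.53 in Inv:Del(CBS7-10), 2.19 in Inv and 2.26 in Ins. Beside it, 128895908 was listed at a −log10 q of 29.5 in Inv:Del(CBS7-10) and 10.4 in Ins only. The nearest summit of all, 128889009, was inside the gene at 2.71 kb and listed in Inv:Del(CBS7-10) alone, at 3.86.

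Of the other Gdf11 positions, 2 were missing from Del(CBS8-10): 128866220 had 18.0 in Inv:Del(CBS7-10), 4.34 in Inv and 21.9 in Ins, and 128900876 had 48.4 in Inv:Del(CBS7-10), 10.3 in Inv and 12.6 in Ins. For the first, a Del(CBS8-10) summit at a −log10 q of 9.19 lay just outside the matching distance. The position 128834638, within Sarnp, was missing from Inv and had 5.66 in Del(CBS8-10), 21.8 in Inv:Del(CBS7-10) and 36.4 in Ins.

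Lin28a and its paralogue Lin28b had 2 of 13 and 3 of 8 positions constant, beside 32.8% on the genome outside chromosome 11. Lin28a lies on chromosome 4 and is a known pluripotency gene. The first of its 2 constant positions, 134036157 at 17.0 kb upstream, was the strongest in Ins. Its relative pileup was 1.07 in Del(CBS8-10), 1.88 in Inv:Del(CBS7-10), 2.10 in Inv and 1.44 in Ins. The other, 134001903, lay 1.43 kb beyond the 3′ end near the promoter of Dhdds, with 1.00 in Del(CBS8-10), 0.704 in Inv:Del(CBS7-10), 1.19 in Inv and 0.985 in Ins. The nearest summit to the Lin28a start, 134018094, was listed in Inv:Del(CBS7-10) alone at a −log10 q of 3.31.

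Lin28b, on chromosome 10, had 8 positions and 3 constant ones, and all 3 lay past its 3′ end. The closest of these, 45373421, was 113 kb from the RefSeq start of the long gene and 96.8 kb from the start in the promoter table. The strongest in Ins, 45344581 within the neighbour Bves, had 1.43 in Del(CBS8-10), 1.45 in Inv:Del(CBS7-10), 1.00 in Inv and 1.17 in Ins. Between them, 45348303 had 0.833 in Del(CBS8-10), 0.861 in Inv:Del(CBS7-10), 1.52 in Inv and 0.455 in Ins, the widest Inv to Ins ratio among constant positions outside chromosome 11, at 3.35 (1.97 to 5.71).

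The nearest summit to the RefSeq start of Lin28b, 45511980 at 25.7 kb upstream, was listed in Ins alone at 5.41. From the start in the promoter table the nearest was 45446459, at 23.7 kb and inside the gene, listed in Del(CBS8-10) alone at 4.56. Inside the gene, 45382052 had a −log10 q of 15.5 in Del(CBS8-10), 84.0 in Inv:Del(CBS7-10) and 41.0 in Ins and was not listed in Inv.

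**Figure D2:**
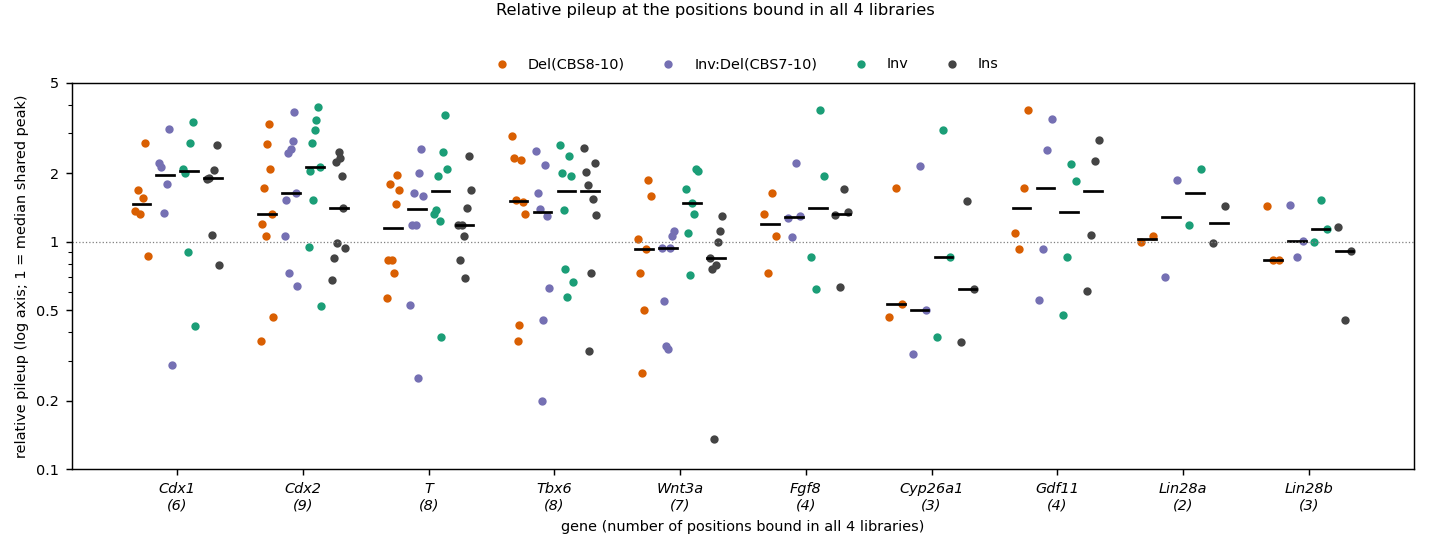
Relative pileup, on a log axis, at the 54 positions in all 4 libraries, by gene and library; bars mark each library's median and the dotted line a median shared peak. The medians of Cdx1, Cdx2, T, Tbx6, Fgf8, Gdf11 and Lin28a lie above 1 in every library. Those of Cyp26a1 lie below 1, and those of Wnt3a and Lin28b lie on both sides of it. The libraries overlap at every gene.

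Across the 10 windows, 39 of the 111 Ins summits (35.1%, interval 26.9% to 44.4%) had no Del(CBS8-10) summit within 100 bp, beside 35.1% of Ins summits outside chromosome 11. Against Inv, 48 of 111 (43.2%, interval 34.4% to 52.5%) were not found, beside 44.0%. Of the 76 Inv summits, 5 (6.58%, interval 2.84% to 14.5%) were not found in Inv:Del(CBS7-10), beside 14.2%. All of these shares lay near the genome's or had intervals that reached it. Losses were rare at the strongest summits: of the 39 Ins summits with a −log10 q of 50 or more, 0 were missing from Del(CBS8-10) (genome 0.418%) and 1 from Inv (2.56%, genome 2.45%), the position just inside Cdx1 described above. These shares were near the genome's too. From 20 to 50, 4 of 22 were missing from Del(CBS8-10) (18.2%, interval 7.31% to 38.5%, genome 7.84%). From Inv, 8 of 22 were missing (36.4%, interval 19.7% to 57.0%, genome 25.4%). These shares lay above the genome's, with intervals that reached it. From 10 to 20, 57.1% were missing from Del(CBS8-10) (interval 32.6% to 78.6%, genome 38.8%). From Inv, 71.4% were missing in that class (interval 45.4% to 88.3%, genome 56.9%). Both were again above the genome's with intervals that reached it. From 5 to 10 the shares were 68.4% for Del(CBS8-10) (genome 68.5%) and 84.2% for Inv (genome 75.9%). Under 5 the shares lay below the genome's, at 82.4% for Del(CBS8-10) (genome 84.7%) and 76.5% for Inv (genome 86.1%).

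**Figure D3:**
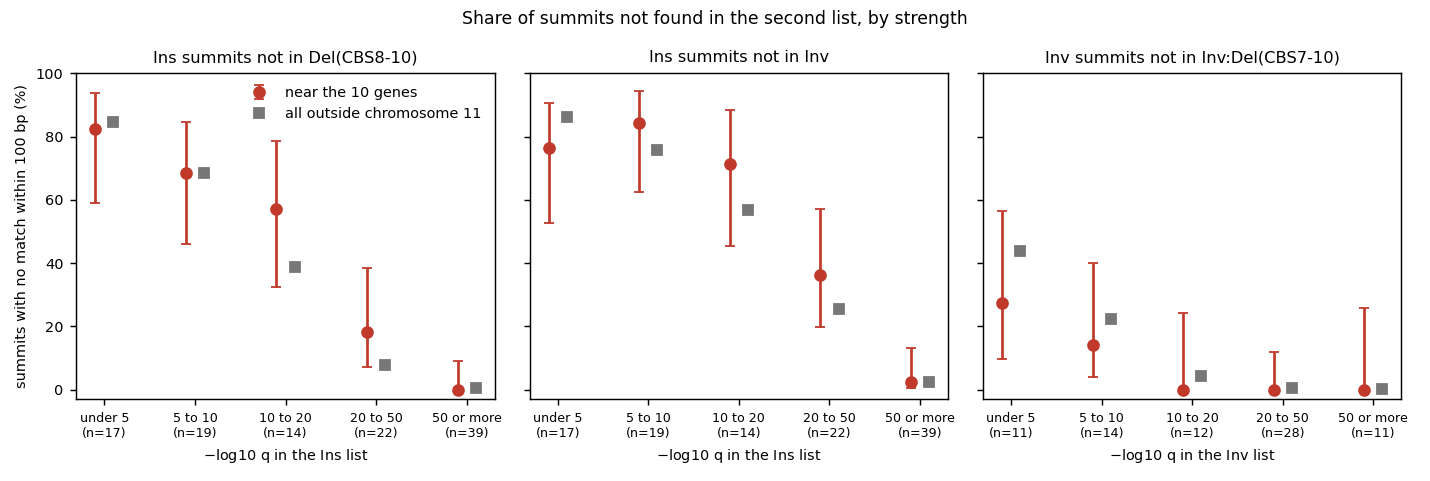
Share of summits not found in the second list, in percent, by −log10 q in the first; red points with Wilson intervals are summits near the 10 genes and grey squares all summits outside chromosome 11. In each panel the grey squares descend with strength, and the red intervals, many of them wide, overlap them in every class.

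At summits found in both lists, changes past 2-fold in relative pileup were counted. Del(CBS8-10) over Ins shared 72 peaks, of which 4 were over 2-fold higher (6.06% on the genome) and 2 over 2-fold lower (1.30% on the genome), with a median log2 ratio of 0.03 against 0.11 on the genome. The 4 higher ones, at Tbx6, Fgf8 and Cyp26a1, held 18 fragments or fewer in Del(CBS8-10). The 2 lower ones were 147346168 at Cdx2, at 0.497 times Ins (0.257 to 0.897), and 8388649 at T, at 0.48 times Ins (0.266 to 0.818).

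Inv over Ins shared 63 peaks, with 11 over 2-fold higher (13.6% on the genome) and 0 over 2-fold lower (5.35%). The median log2 ratio was 0.41 (genome 0.24). Among the 11 were 3 at Cdx2, 3 at Wnt3a, 2 at Tbx6 and 1 each at Fgf8, Cyp26a1 and Lin28b. Without Wnt3a, 8 of 54 peaks were past 2-fold and the median was 0.34. Per gene, the median ran from −0.34 at Gdf11 to 0.90 at Wnt3a. Chromosome 11 as a whole had a median of 0.76 in this comparison, so the Wnt3a value was near that of its chromosome.

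Inv:Del(CBS7-10) over Inv shared 71 peaks, with 0 over 2-fold higher (3.52% on the genome) and 10 over 2-fold lower (16.1%). The median log2 ratio was −0.39 (genome −0.27). The 10 were 3 at Cdx2, 3 at Wnt3a and 1 each at Cdx1, T, Tbx6 and Lin28a, and without Wnt3a 7 of 62 peaks were past 2-fold and the median was −0.27. At Wnt3a it was −0.98, beside −0.78 for chromosome 11, and summing both copies of the Wnt3a window gave the same −0.98. Gdf11 was the gene with the highest median, at 0.16. The last 2 comparisons share the Inv library, so that a level peculiar to it moves them in opposite directions, and its depth was the lowest.

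The sign of these medians depends on whether and how the libraries are scaled. With the deposited fold enrichment scaled to the same shared peaks, the medians kept their signs, at 0.07 for Del(CBS8-10) over Ins (genome 0.08), 0.31 for Inv over Ins (genome 0.16) and −0.36 for Inv:Del(CBS7-10) over Inv (genome −0.18). With that fold unscaled, all 3 signs turned, and the genome's turned with them: −0.37 for Del(CBS8-10) over Ins (genome −0.36), −0.11 for Inv over Ins (genome −0.27) and 0.30 for Inv:Del(CBS7-10) over Inv (genome 0.49). Scaled by the background per position, the medians were −0.47 for Del(CBS8-10) over Ins (genome −0.39), 0.94 for Inv over Ins (genome 0.77) and −0.74 for Inv:Del(CBS7-10) over Inv (genome −0.62). On this scale the sign of Del(CBS8-10) over Ins turned, near the 10 genes and on the genome alike.

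**Figure D4:**
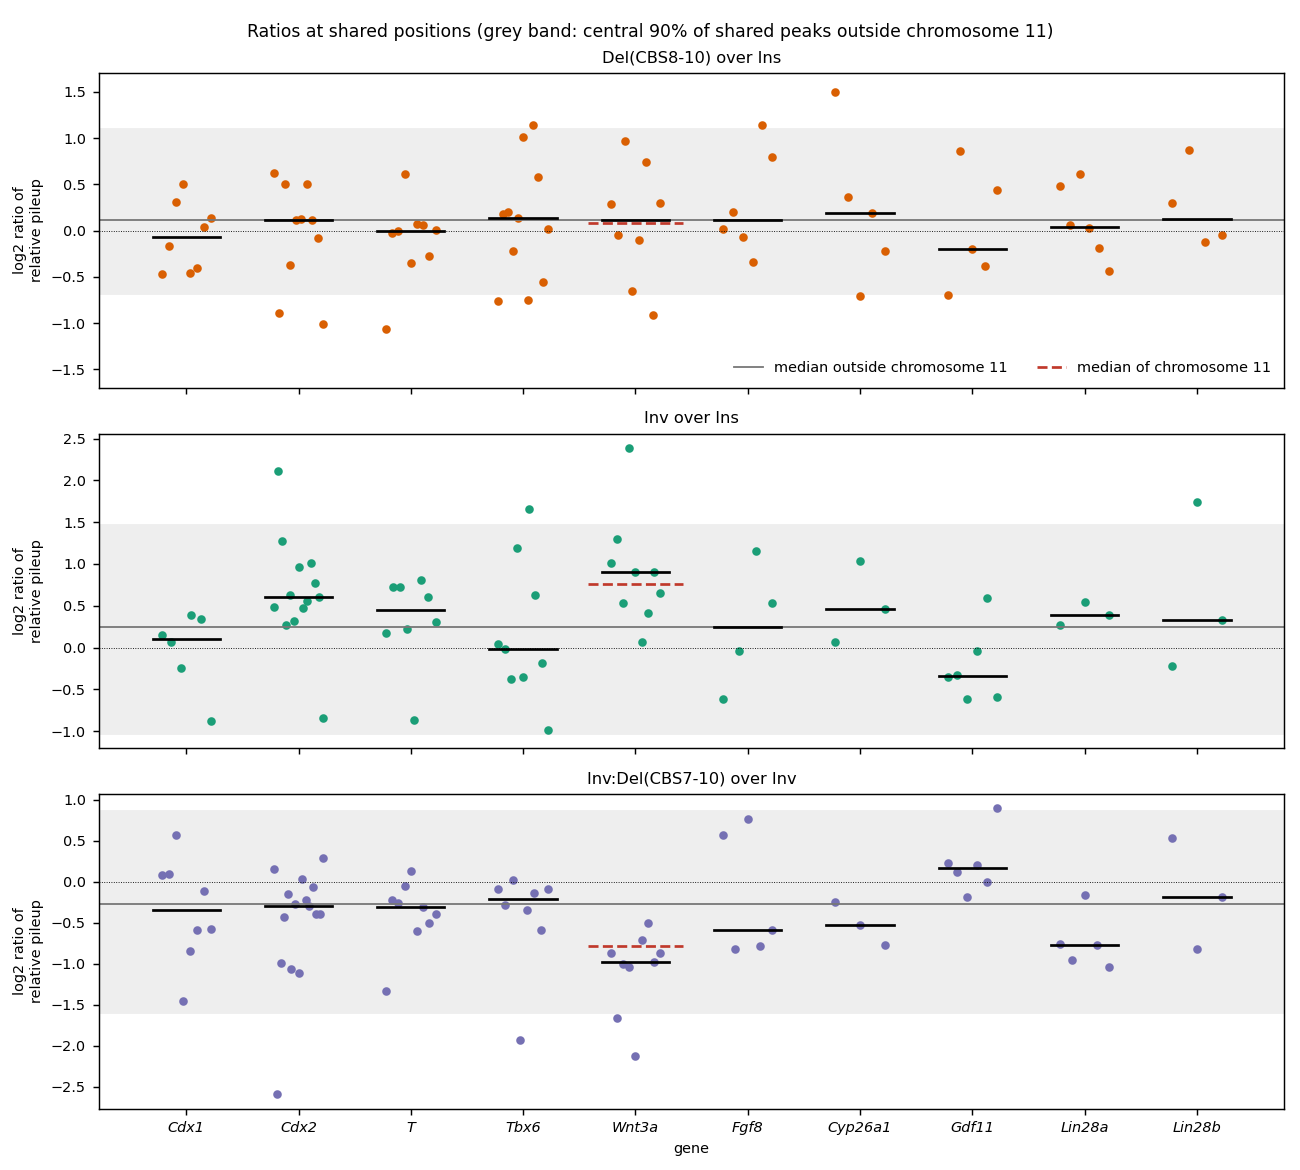
Log2 ratios of relative pileup at shared positions, by gene, for Del(CBS8-10) over Ins, Inv over Ins and Inv:Del(CBS7-10) over Inv. Black bars are gene medians, the grey line and band the median and central range of all shared peaks outside chromosome 11, and the red dashes the chromosome 11 median. Most points lie inside the band, and the Wnt3a medians lie near those of chromosome 11.

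Gaps were most frequent in the shallower libraries. Of the 147 positions, 14 were absent from Inv alone (9.52%, genome 8.28%), 9 from Del(CBS8-10) alone (6.12%, genome 4.28%), 1 from Inv:Del(CBS7-10) alone (0.68%, genome 0.441%) and 0 from Ins alone (genome 0.633%), which is near the genome's shares. The part of depth in these gaps was not tested. Positions found in both inverted libraries and in neither of the others numbered 8 (5.44%, beside 2.94% on the genome), and no interval was computed for this share. Among them were the positions near the starts of T and Cdx2 given above, with 5 and 8 fragments in Inv. Another was 61035151 just inside Cdx1, where Del(CBS8-10) and Ins had a summit at the neighbouring 61034956.

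A list of 36 other genes of axial elongation was described in the same way: WNT, FGF, retinoic acid and GDF11 pathway genes, LIN28 targets and partners, segmentation genes, caudal genes and posterior Hox genes. All 36 had a summit within 50 kb in every library, beside 89.5% of protein-coding genes outside chromosomes 11 and Y. Of the 30 with a known start, 14 (46.7%) had a summit within 5 kb of it in all 4 libraries, against 38.4% of all genes, and 8 in no library. The 3 with the highest −log10 q in Ins were Crabp2, Aldh1a2 and Msgn1. Crabp2, which encodes a retinoic acid carrier, had 110 in Del(CBS8-10), 440 in Inv:Del(CBS7-10), 145 in Inv and 288 in Ins. Aldh1a2, the enzyme that makes retinoic acid, had 132 in Del(CBS8-10), 458 in Inv:Del(CBS7-10), 76.8 in Inv and 216 in Ins, and its nearest summit lay 0.443 to 0.462 kb from the start in the 4 libraries. Msgn1, a paraxial mesoderm factor, had 73.1 in Del(CBS8-10), 354 in Inv:Del(CBS7-10), 95.5 in Inv and 183 in Ins.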

How the data were processed

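CTCF CUT&RUN was done on 4 mouse embryonic stem cell lines, 1 library each. Per the submitters' processing notes, MACS2 2.2.7.1, Bowtie2 2.4.5, cutadapt 4.1, bedtools 2.30.0 and Picard were used with mm10, and the deposited chromosome names list both copies of chromosome 11. The deposited narrowPeak lists give a display score, a fold enrichment ratio, −log10 p-values and −log10 q-values, and a summit per peak; all are the authors' own values per peak, called per library. The whole-number pileup at each summit was recovered from the deposited ratio and −log10 p-value, for 100.0% of peaks to within 0.001 or a relative 2e-05. It was divided by the library's median at shared peaks. Summits within 100 bp were matched.

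The members and lists were chosen with earlier results of these data known. For each gene the text names the position nearest to the start, the strongest in Ins and those missing from a list although their −log10 q reaches 20 in another, and of the 36 other genes the 3 strongest in Ins. Other positions named, mostly shared ones close to a start or past 2-fold, were chosen after their values were seen. The strand of Fgf8 and Cdx1 was taken as minus from general knowledge, and 6 of the 36 other genes had no start. Intervals (Wilson for shares, exact conditional for pileup ratios, 95%) cover counting error only, and PCR copies are not independent molecules. Alternatives kept peaks from a −log10 q of 10 upward or only the 20000 strongest, or used a window of 10 kb, summits within 250 bp, 1 kb from the start, overlapping intervals, no Inv library, other scalings and, added after seeing the data, leaving out Wnt3a and the scaled deposited fold. Python 3.11.15, NumPy 2.4.6, pandas 2.3.3, SciPy 1.17.1 and Matplotlib 3.10.9 were used, and the steps were tested on simulated data.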

Additional observations from a re-analysis of the deposited data

How the results depend on the processing

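Counts fell as the lists or windows were cut, by construction. From a −log10 q of 10 upward, Del(CBS8-10) had 53 summits, 22 Ins summits were missing from Del(CBS8-10), 27 from Inv and 2 Inv summits from Inv:Del(CBS7-10), and 2-fold changes numbered 2, 6 and 4 for Del(CBS8-10) over Ins, Inv over Ins and Inv:Del(CBS7-10) over Inv. With the 20000 strongest peaks, summits numbered 33, 32, 34 and 33 in Del(CBS8-10), Inv:Del(CBS7-10), Inv and Ins, 22 positions were in all 4 libraries, 6 and 7 Ins summits were missing from Del(CBS8-10) and Inv, and 2-fold changes numbered 0, 3 and 0 in the same 3 comparisons. A window of 10 kb left 27, 40, 26 and 34 summits in Del(CBS8-10), Inv:Del(CBS7-10), Inv and Ins, 16 constant positions, 11 and 15 Ins summits missing from Del(CBS8-10) and Inv, 2 Inv summits missing from Inv:Del(CBS7-10) and 1, 4 and 6 changes. Within 1 kb of the start 1 gene was bound in all 4 libraries, and the share of all genes at 1 kb was not computed. Scaling by genome background gave 10 changes at 72 shared peaks for Del(CBS8-10) over Ins (0 higher, 10 lower). On the genome 1.15% were higher and 9.77% lower. For Inv over Ins it gave 29 at 63 peaks (29, 0), beside 36.5% higher and 1.32% lower on the genome. For Inv:Del(CBS7-10) over Inv it gave 24 at 71 peaks (0, 24), beside 1.25% higher and 28.7% lower. The unscaled deposited fold gave 6 (0 higher, 6 lower, against 4 and 2 as reported), 5 (2, 3) and 6 (5, 1) in the same comparisons. The genome's shares, higher then lower, were 0.11% and 6.68%, 1.18% and 10.7%, and 17.6% and 0.417%. The fold scaled to shared peaks gave 1 (0, 1), 5 (5, 0) and 7 (0, 7). Beside these the genome had 1.45% and 0.939%, 5.17% and 3.01%, and 2.47% and 5.76%. The other 33 of 69 alternative values were within 1.5 times the reported count. Why the scalings differ was not tested. No paired analysis was possible because each genotype has 1 library. Inv had the lowest background per position, and the part of depth in missing weak peaks was not tested.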
